A study of Rattus norvegicus with 6 samples.

Results

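The small early response genes analysed here are Ier2, Ier3 and Ier5, the inhibitors of DNA binding Id1, Id2, Id3 and Id4, the growth regulator Myc, the small Maf protein gene Maff and the neuronal factor Npas4. The members were taken by gene symbol: all probe sets, the groups of short probes that together measure 1 transcript on an Affymetrix array, whose only symbol in the platform annotation is one of the 10 listed. Of the 31099 probe sets of the array, 15 met this rule, and they stand for 9 of the 10 genes: 4 for Id4, 3 for Ier5, 2 for Id2 and 1 each for Ier2, Ier3, Id1, Id3, Myc and Maff. No probe set carried the single symbol Npas4, so its transcript was not analysed here. The tissue was rat hippocampus kept as organotypic cultures, slices prepared by the roller tube method that survive outside the animal with their local circuits. Gabazine-treated cultures received 20 µM gabazine for 90 min, a blocker of the GABA-A receptor and hence of fast inhibition, and control cultures were left untreated. Each of 3 biological replicas split cultures from 2 littermates of Wistar rats between both conditions, which gave 3 gabazine-treated and 3 control arrays. The sample labels give postnatal day 4 for the animals, and the methods give postnatal days 4 to 5.

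Immediate early genes are transcribed within minutes of calcium entry or growth factor signals, with no need for newly made protein, and in the hippocampus they mark strongly active neurons. Ier2, Ier3 and Ier5 encode short proteins without a known DNA-binding domain. Id proteins have the helix-loop-helix that pairs with basic helix-loop-helix (bHLH) factors but lack the basic region that holds DNA, so that they keep their partners from binding. They are known targets of bone morphogenetic protein (BMP) signalling and are abundant in astrocytes, in vessels and in neural progenitors as well as in some neurons. Myc binds E-boxes together with Max and drives genes of cell growth, and MafF is a small leucine zipper protein that binds DNA with itself or with the CNC factors such as Nrf2. Npas4 is a bHLH-PAS factor induced in neurons by calcium entry through depolarization.

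The start regions of 4 members are shown, chosen with their values seen. Ier2, with the highest value of the set, and Maff, the next one on a brightest probe set, hold the full cAMP response element there. Ier5, Id1, Id2, Id3, Id4 and Npas4 lack it. No sequence was matched for Ier3 and Myc, and Npas4 had no value on the array. The log2 fold change of Maff was 0.52 with a standard error of 0.38, and the part of the element in the values was not tested. Each region shown is the 250 bases before the annotated transcription start, written 5′ to 3′ on the strand of the gene, as RefSeq gives it on the rat build GRCr8. Capitals mark the full cAMP response element TGACGTCA, its short form TGACG, the TATA box TATAAA, the Smad-binding GGCGCC, the E-box CACGTG and the CArG box bound by SRF, all searched on both strands, and the short form lies within the full one in both promoters that hold it. The positions are chr19:40399123-40399372 (plus strand) for Ier2, chr7:112792537-112792786 (plus strand) for Maff, chr13:69822543-69822792 (minus strand) for Ier5 and chr3:161671314-161671563 (plus strand) for Id1.
Ier2: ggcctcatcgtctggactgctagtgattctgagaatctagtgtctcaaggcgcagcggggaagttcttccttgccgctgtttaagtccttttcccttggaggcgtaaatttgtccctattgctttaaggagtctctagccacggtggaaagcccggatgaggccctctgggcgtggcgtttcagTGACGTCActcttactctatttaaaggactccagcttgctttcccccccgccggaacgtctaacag
Maff: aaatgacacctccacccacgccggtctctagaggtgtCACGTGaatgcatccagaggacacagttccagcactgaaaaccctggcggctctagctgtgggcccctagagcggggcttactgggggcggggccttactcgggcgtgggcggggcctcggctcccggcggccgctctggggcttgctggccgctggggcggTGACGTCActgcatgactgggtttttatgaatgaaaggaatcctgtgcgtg
Ier5: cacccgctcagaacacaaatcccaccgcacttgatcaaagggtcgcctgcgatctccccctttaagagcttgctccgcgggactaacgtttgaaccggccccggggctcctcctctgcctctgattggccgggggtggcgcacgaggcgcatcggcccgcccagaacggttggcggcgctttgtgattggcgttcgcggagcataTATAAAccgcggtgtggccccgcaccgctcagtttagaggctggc
Id1: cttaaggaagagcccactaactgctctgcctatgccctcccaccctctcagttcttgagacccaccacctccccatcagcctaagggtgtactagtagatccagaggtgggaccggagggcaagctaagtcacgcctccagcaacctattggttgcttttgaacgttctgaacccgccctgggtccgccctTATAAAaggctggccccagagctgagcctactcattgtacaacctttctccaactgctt

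Promoters of 8 of the 10 listed genes were matched by symbol, those of Ier2, Ier5, Id1, Id2, Id3, Id4, Maff and Npas4. The full cAMP response element stood in 2 of these 8, 66 to 59 bases before the start of Ier2 and 51 to 44 bases before that of Maff, while 1.59% of all 33469 promoters of this length held it. The short form, found in 18.2% of all promoters, stood in the same 2 members. TATAAA stood in Id1 and Ier5, against 12.9% of all promoters, and CACGTG in Maff, against 5.59%. No member had a CArG box or GGCGCC in this window, which 501 and 2910 of all promoters held. These matches describe letters and not bound sites.

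The deposited values are log2 intensities, so that a difference of 1 is a doubling, and the log2 ratio of a replica is the difference of its gabazine and control arrays, positive where gabazine was higher. The arrays had medians from 7.89 to 8.71. The log2 ratios spread more widely in replica 1 (SD 0.475 over all probe sets) than in replicas 2 and 3 (SD 0.247 and 0.230), and both arrays of a replica held an identical value for 16.1% to 25.7% of the probe sets. The bacterial hybridization controls, 9 probe sets for RNA added to every sample, had medians of 4.71 and 4.70 on the gabazine and control arrays of replica 1, against 10.4 to 12.2 on the other 4 arrays. The labelled tissue was checked on marker genes: mean log2 intensities ran from 8.23 to 13.47 over all 7 markers of excitatory neurons, from 8.18 to 14.96 over all 8 of astrocytes and from 6.61 to 7.75 over the 6 measured of endothelial and mural cells. Levels of different probe sets share no scale and the values carry no detection call, so that these ranges do not rank the cell types.

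Ier2 had the highest mean log2 ratio of the 15 probe sets after GabT, and no member passed the test across the array. At an adjusted p under 0.05 (limma with the replica as a block, Benjamini-Hochberg over all probe sets) 0 of the 15 probe sets were called, as for the array as a whole, where 0% of 31099 were called and no adjusted p lay below 0.467. Without adjustment, 2 of the 15 had a limma p under 0.05 and were higher, those of Ier2 and 1 of Id2, against 1.84% of all probe sets, while 0 were lower, against 2.68%. Higher in all 3 replicas were 3 of the 15, those of Ier2, Id1 and the same probe set of Id2, against 6.92% of all probe sets, and 0 were lower in all 3, against 9.49%. A probe set with identical values in a replica can be neither. Such values were held by 2 of the 15 and by 14754 of all 31099, so that these shares are not fully alike. The median log2 fold change, the mean of the 3 log2 ratios, was 0.25 over the 15 probe sets and 0.22 over the 9 brightest ones, beside 0.00 over all probe sets and -0.01 over the brightest of 14218 genes. By replica the median of the 15 was 0.42, 0.04 and 0.14 in replicas 1, 2 and 3. An exact sign-flip test over 3 replicas cannot give a p below 0.25, which the 3 probe sets that were higher in all replicas reached.

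**Figure D1:**
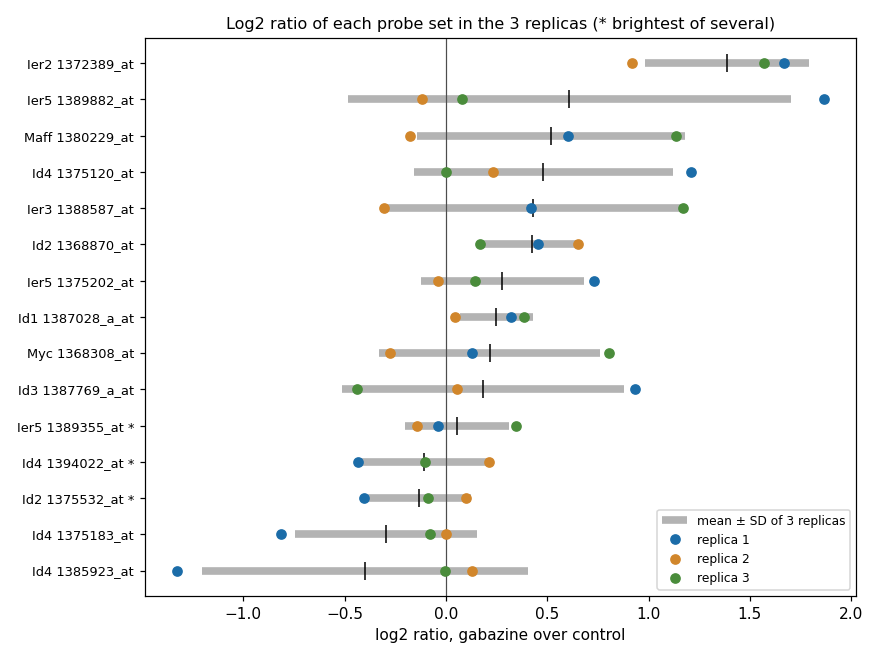
Log2 ratio of gabazine over control (x axis) for the 15 probe sets, with 1 point for each replica, a black tick at the mean and a grey bar for the mean ± SD of the 3 replicas; an asterisk marks the brightest of several probe sets of a gene. All 3 points of Ier2 lie at 0.92 or above, while the 4 probe sets of Id4 spread from -1.33 to 1.21 in replica 1 alone.

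Ier2 had log2 intensities of 11.73, 11.28 and 11.23 in gabazine replicas 1, 2 and 3, against 10.06, 10.36 and 9.65 in the control replicas. Every gabazine-treated value lay above every control value, and this was the only one of the 15 probe sets whose groups did not overlap. Over all 31099 probe sets, 0.289% had all gabazine values above all control values and 0.0965% had them all below. Its group means were 11.41 ± 0.28 in gabazine-treated and 10.02 ± 0.35 in control cultures (SD, n = 3 each). Its log2 ratios were 1.67, 0.92 and 1.57, and its log2 fold change was 1.39 (standard error 0.23), and the arithmetic mean of its 3 linear ratios was 2.68. The limma p was 0.00630 and the adjusted p 0.747. Among all 31099 probe sets it stood in place 45 from the top by log2 fold change and in places 397, 256 and 40 in replicas 1, 2 and 3. Ier2 was thus the one member that was high in the narrow distributions of replicas 2 and 3 as well as in the wide one of replica 1.

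**Figure D2:**
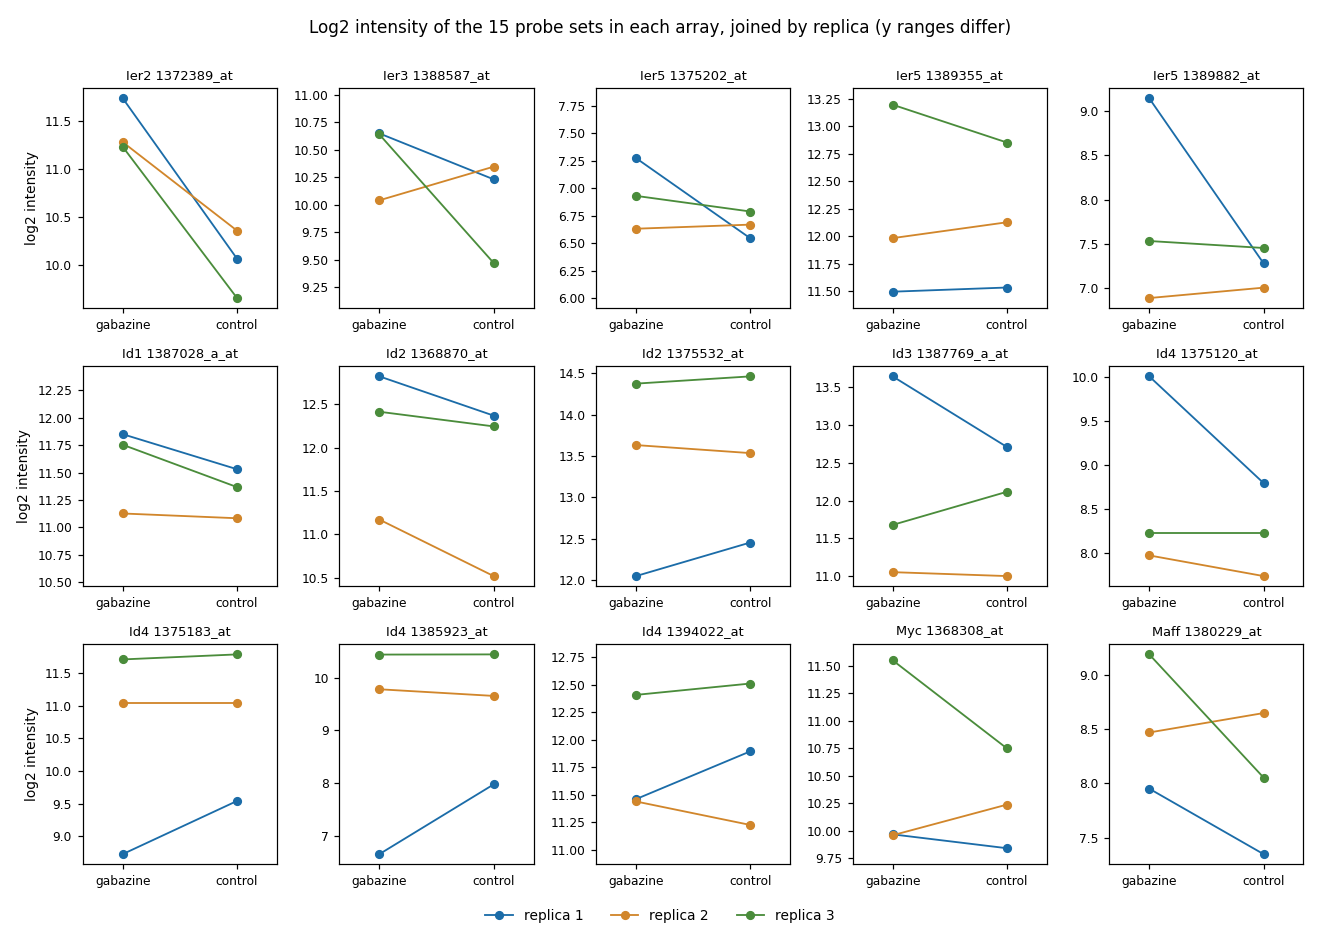
Log2 intensity (y axis, with a different range in each panel) of the 15 probe sets on each array, gabazine-treated on the left and control on the right, with the arrays of a replica joined by a line. Only in the panel of Ier2 do the gabazine-treated values (11.23 to 11.73) all lie above the control values (9.65 to 10.36), as they did for 0.289% of all probe sets.

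Ier3, known as IEX-1 and induced by stress and NF-κB signalling, did not move alike in the replicas. It had 10.65, 10.04 and 10.64 in gabazine replicas 1, 2 and 3, against 10.23, 10.35 and 9.47 in the control replicas. The log2 ratio was 1.17 in replica 3, where it stood in place 71 of the array, 0.42 in replica 1 and -0.31 in replica 2. Its log2 fold change of 0.43 (standard error 0.43, adjusted p = 0.747 in limma) did not exceed the spread between replicas, and without replica 3 it was 0.06.

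The probe sets of Ier5, which encodes a partner of the phosphatase PP2A and of the heat shock factor Hsf1, differed from one another in replica 1. The brightest, 1389355_at, had 11.49, 11.98 and 13.20 in gabazine replicas 1, 2 and 3, against 11.53, 12.13 and 12.85 in the control replicas. Its log2 ratios lay close to 0, between -0.14 and 0.34, and averaged 0.05 (standard error 0.15). The dimmer probe set 1389882_at had 9.15, 6.89 and 7.53 in gabazine-treated cultures, against 7.28, 7.005 and 7.45 in control cultures. Its only high value was that of the gabazine array of replica 1, with a log2 ratio of 1.86 there against -0.12 and 0.08 in replicas 2 and 3. The dimmest one, 1375202_at, had log2 ratios of 0.73, -0.04 and 0.14. In replica 1 the 3 probe sets thus ranged from -0.04 to 1.86, while in replicas 2 and 3 they stayed within -0.14 to 0.34.

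Maff had log2 intensities of 7.95, 8.47 and 9.19 in gabazine replicas 1, 2 and 3, against 7.35, 8.65 and 8.05 in the control replicas. The gabazine-treated value was higher in replicas 1 and 3 and lower in replica 2, with log2 ratios of 0.60, 1.13 and -0.18 in that order. Its log2 fold change was 0.52 (standard error 0.38, adjusted p = 0.747 in limma), the second highest of the 9 brightest probe sets, and its groups overlapped. Myc had 9.97, 9.96 and 11.55 in gabazine-treated cultures, against 9.84, 10.24 and 10.75 in control cultures. Only replica 3 gave Myc a clear difference, with a log2 ratio of 0.80 and place 157 of the array, beside 0.13 in replica 1 and -0.28 in replica 2. The log2 fold change of Myc was 0.22 (standard error 0.32, adjusted p = 0.764), and without replica 3 it was -0.08.

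Ier3, Maff and Myc had the same order of their replicas, an order that the brightest probe set of Ier5 and that of Id1 also had within a narrower range. The log2 ratios of Ier3, Maff and Myc were highest in replica 3, lower in replica 1 and below 0 in replica 2, where they stood in places 29198, 26569 and 28818 of 31099. In replica 3 they stood, with Ier2, in places 40 to 157. The distance between the log2 ratios of 2 genes over the 3 replicas (Euclidean) was 0.23 between Ier3 and Maff, 0.47 between Ier3 and Myc and 0.59 between Myc and Maff. Myc lay about as near to Ier5 (0.50) and to Id1 (0.56), Ier5 and Id1 were 0.41 apart, and Ier2 was 1.59 to 2.10 from Ier3, Maff and Myc. All these genes share the arrays and the replicas, and the likeness is given as a description over 3 values for each gene.

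**Figure D3:**
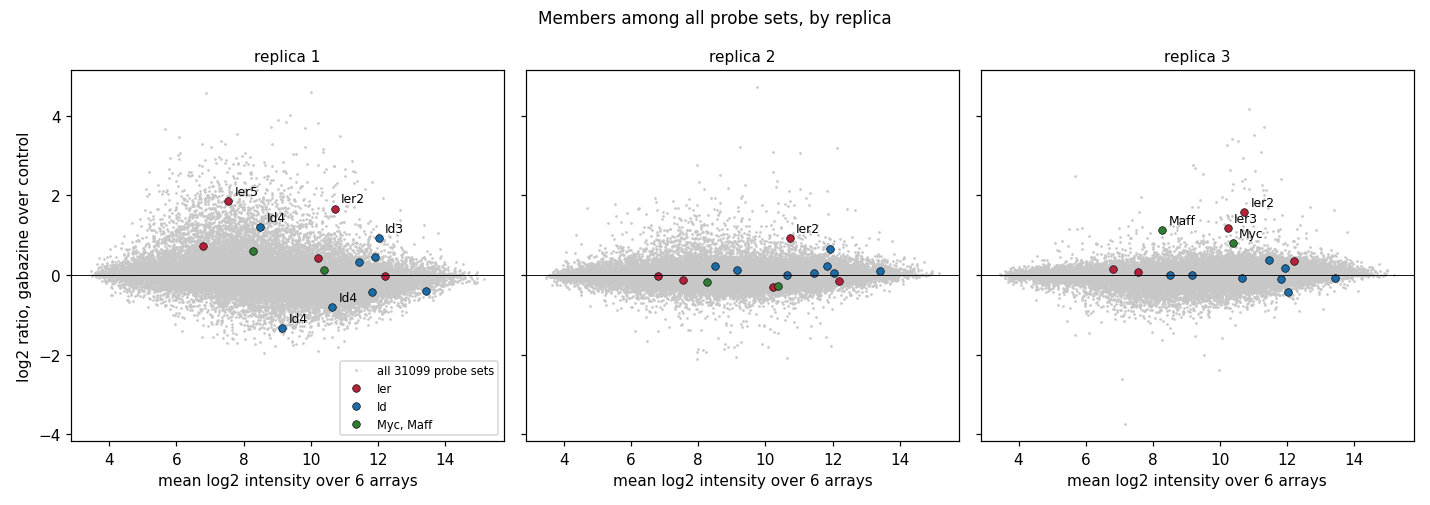
Log2 ratio of gabazine over control (y axis) against the mean log2 intensity over the 6 arrays (x axis), in 1 panel for each replica, with all 31099 probe sets in grey and the members in colour by family. Members beyond 0.75 in either direction are named: Ier2 stands out in each panel, Ier3, Maff and Myc only in replica 3, and probe sets of Ier5, Id3 and Id4 only in replica 1, where the grey cloud is wide.

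The Id genes, which hold bHLH factors off DNA, showed no common direction. Of their 8 probe sets, 4 had a log2 fold change above 0, against 15302 of all 31099, and the median was 0.04. In replica 2, 7 of the 8 had a log2 ratio above 0 and 1 was tied, with a median of 0.11. Over all probe sets 11112 were above and 12495 below 0 in that replica. The medians of the 8 were -0.04 in both other replicas, and 4 of the 8 probe sets are those of Id4.

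Id1 had log2 intensities of 11.85, 11.13 and 11.75 in gabazine replicas 1, 2 and 3, against 11.53, 11.08 and 11.37 in the control replicas. The gabazine-treated value was slightly higher in each replica, but the groups overlapped. Its log2 ratios of 0.32, 0.04 and 0.39 gave a log2 fold change of 0.25 (standard error 0.10, adjusted p = 0.747 in limma). Id3 had 13.65, 11.05 and 11.68 in gabazine-treated cultures, against 12.71, 10.999 and 12.12 in control cultures. It was higher in replica 1, nearly equal in replica 2 and lower in replica 3, with log2 ratios of 0.94, 0.05 and -0.44. The log2 fold change of Id3 was 0.18 (standard error 0.40), and without replica 1 it was -0.19.

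Id2, which in the forebrain is known from neurons as well as from progenitors, was measured by 2 probe sets with different results. The probe set 1368870_at had 12.82, 11.17 and 12.42 in gabazine replicas 1, 2 and 3, against 12.37, 10.52 and 12.25 in the control replicas. It was higher in each replica, by 0.45, 0.65 and 0.17 on the log2 scale, and averaged 0.42 (standard error 0.14, adjusted p = 0.747 in limma). In replica 2 it stood in place 582 of 31099. The brighter probe set 1375532_at had 12.05, 13.63 and 14.37 in gabazine-treated cultures, against 12.45, 13.53 and 14.46 in control cultures. Its log2 ratios were -0.41, 0.10 and -0.09, so that 1 transcript name stood both among the higher probe sets and slightly below 0. Averaged over both, the log2 fold change of Id2 was 0.15, against -0.13 on the brighter one. Both also differed in how they ordered the control cultures, since 1368870_at was lowest in control replica 2 and 1375532_at in control replica 1.

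The 4 probe sets of Id4 parted in replica 1 and lay together in the others. Probe set 1375120_at had 10.00, 7.98 and 8.23 in gabazine replicas 1, 2 and 3, against 8.80, 7.74 and 8.23 in the control replicas. Probe set 1385923_at had 6.65, 9.78 and 10.44 in gabazine-treated cultures, against 7.97, 9.66 and 10.45 in control cultures. In replica 1 the first was thus higher by 1.21 and the second had a log2 ratio of -1.33, which was place 31025 of 31099. Probe set 1375183_at had log2 ratios of -0.81, 0.00 and -0.08, and the brightest, 1394022_at, had -0.43, 0.21 and -0.10. In replicas 2 and 3 all 4 stayed between -0.10 and 0.23. Of these values, 2 were exact ties between the arrays of a replica, that of 1375120_at in replica 3 and that of 1375183_at in replica 2. The log2 fold changes ran from -0.40 to 0.48, and the mean over the 4 probe sets was -0.08.

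Other measures of replica 1 stood apart in the same arrays. The 5′ probe set of beta-actin had 14.39 on the gabazine array of replica 1 against 12.22 on its control array, a log2 ratio of 2.17, beside -0.14 and 0.33 in replicas 2 and 3, while its 3′ probe set had 0.47, 0.10 and 0.23. Gapdh had 0.53, 0.06 and 0.06 at its 5′ end and 0.03, 0.02 and 0.14 at its 3′ end. Hexokinase differed in replica 1 at both ends, with 2.10, -0.30 and 0.00 at the 5′ end and 1.72, -0.27 and 0.12 at the 3′ end. The summed level of 6 of 7 choroid plexus markers was 13.48, 11.41 and 10.73 on the log2 scale in gabazine replicas 1, 2 and 3, against 11.08, 11.29 and 10.65 in the control replicas, and Ttr, the thyroid hormone carrier of that tissue, had a log2 ratio of 4.59 in replica 1. The part of these differences in the values of Id3, Id4 and Ier5 in replica 1 was not tested. Fewer cells of a type and less RNA in each cell cannot be told apart in RNA of whole cultures.

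Markers of other cells were also compared with the Id genes. The summed level of 8 of 8 astrocyte markers was 16.76, 16.59 and 17.07 in gabazine-treated cultures, against 16.84, 16.56 and 17.03 in control cultures, so that it differed by at most 0.08 in any replica. Single astrocyte markers differed more. On the brightest probe sets, 1107 of all 14218 genes were higher and 1537 lower in all 3 replicas. Among the 8 astrocyte markers, 2 were higher and 1 was lower in all 3. Aqp4 was the lower one (-0.52, -0.21 and -0.05), and Gjb6 had 0.59, 2.15 and -0.04. The 7 markers of meningeal cells and fibroblasts had 14.91, 13.11 and 13.75 in gabazine-treated cultures, against 14.68, 12.71 and 14.10 in control cultures. Pdgfra, the brightest of these 7, is also listed for the oligodendrocyte lineage. The sum of the 7 was lower only in replica 3, as Id3 was. In replica 2 its log2 ratio was 0.40, while that of Id3 was 0.05. Single markers of the meningeal list differed from its sum. Lum was lower in all 3 replicas (-0.30, -0.29 and -0.31) and Dcn in replicas 2 and 3 (-1.24 and -0.79). The 7 markers of excitatory neurons had 15.60, 14.92 and 15.53 in gabazine-treated cultures, against 15.68, 14.49 and 15.40 in control cultures, with their largest difference, 0.43, in replica 2, where Id2 probe set 1368870_at also had its largest. The summed level of 6 oligodendrocyte lineage markers had log2 ratios of 0.16, 0.34 and -0.01, the same order of replicas as that probe set. Mbp (mean 0.24) and Mog (0.36) were higher in all 3 replicas, while Mag (0.26), Cspg4 (0.01), Pdgfra (-0.02) and Sox10 (-0.04) were not. The 7 markers of dividing cells had log2 ratios of their summed level of -0.10, -0.06 and 0.02. The 6 measured markers of endothelial and mural cells had -0.11, -0.16 and -0.00. The 6 measured of GABAergic interneurons had 0.22, -0.08 and 0.02, and the 7 of microglia and macrophages had 0.02, -0.07 and 0.21. The part of these markers in the Id values was not tested.

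Differences between the members of a family were taken within each replica on the brightest probe sets, with 9 pairs of genes compared. Ier2 exceeded Ier5 by 1.71, 1.06 and 1.23 in the log2 ratio (mean 1.33 ± 0.33, SD, n = 3), and it exceeded Ier3 by 1.25, 1.23 and 0.40 (mean 0.96 ± 0.48, SD, n = 3). Both differences had the same sign in every replica and were more than 1 SD from 0, but the exact two-sided sign-flip test gave p = 0.25, the smallest it allows, and 0.90 after Benjamini-Hochberg adjustment over the 9 pairs. The other 7 pairs did not keep 1 sign. Id2 and Id4 were the closest pair on their brightest probe sets, with differences of 0.03, -0.12 and 0.02.

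The genes whose 3 log2 ratios lay nearest to those of Ier2, Maff and Ier3, the 3 members with the highest absolute mean on a brightest probe set, were sought among 20817 other probe sets with 1 symbol. For Ier2 they were Egr1, an early response zinc finger factor, with 1.25, 1.07 and 1.63 in replicas 1, 2 and 3 (distance 0.44), Rasgrf1, a calcium-linked exchange factor of Ras, with 1.70, 1.39 and 1.58 (distance 0.47), and Btbd8 with 1.33, 0.95 and 1.23 (distance 0.48). For Maff they were Penk, the precursor of the enkephalins, with 0.69, -0.19 and 1.12 (distance 0.09), Phlda1 with 0.49, -0.20 and 0.93 (distance 0.24) and Sbno2 with 0.65, -0.16 and 0.89 (distance 0.25). For Ier3 they were Cartpt, the precursor of the CART peptides, with 0.16, -0.36 and 1.21 (distance 0.26), and again Phlda1 (distance 0.27) and Penk (distance 0.30). The lists of Maff and Ier3 thus shared Phlda1 and Penk, and that of Ier2 had no gene in common with them.

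The partners and pathways of the members were described on the brightest probe set of each gene, and limma called 0 genes of any of these lists at an adjusted p under 0.05. Of 12 measured bHLH partners of the Id proteins, 0 were higher and 0 lower before adjustment (limma p under 0.05), with a median log2 fold change of 0.11. Over the brightest probe sets of all 14218 genes, 2.37% were higher and 2.84% lower by this count. The highest partner was Neurod6, a bHLH factor of pyramidal neurons, with 0.28 and log2 ratios of -0.22, 0.90 and 0.17, and the lowest was the E protein gene Tcf12 with -0.10. Of 22 genes of BMP and Smad signalling, which acts upstream of the Id genes, 0 were higher and 2 lower, against 2.37% and 2.84% of all genes, with a median of -0.04. These 2 were Smad9, a signal-carrying Smad of the BMP branch, with -0.25 (standard error 0.04) and log2 ratios of -0.34, -0.23 and -0.20, and Smurf2, a ubiquitin ligase for Smads and their receptors, with -0.32 (standard error 0.08) and -0.16, -0.41 and -0.40. Their adjusted p was 0.747, and the other probe set of each gene had 0.13 and -0.12.

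Of 14 genes of the Myc, Max and Mxd network, 0 were higher and 1 lower by the same count, against 2.37% and 2.84% of all genes, with a median of 0.03. This gene was Mlxip, a glucose-sensing partner of Mlx, with -0.35 (standard error 0.06), log2 ratios of -0.37, -0.24 and -0.45 and an adjusted p of 0.747, while its dimmer probe set had 0.11. Max itself, the partner that Myc needs, had 0.04 (standard error 0.07). Of 21 Myc target genes of growth, 0 were higher and 0 lower, against the same shares of all genes, with a median of 0.05. They ran from Gnl3, a nucleolar GTPase gene, at -0.33 to Eif4a1, a translation initiation helicase gene, at 0.28. By replica their median was 0.06, -0.17 and 0.14, and Myc had 0.13, -0.28 and 0.80.

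Of 11 small Maf and CNC partners with their antioxidant targets, 0 were higher and 0 lower, against 2.37% and 2.84% of all genes. Their median was 0.13. The highest was Mafk, a paralog of Maff, with 0.32 and log2 ratios of 0.49, -0.07 and 0.53, which like those of Maff were below 0 in replica 2 alone, and the lowest was Gclm, a subunit of the enzyme for glutathione synthesis, with -0.23. Of 12 relatives and partners of the Ier proteins, 0 were higher and 0 lower, against the same shares, with a median of 0.03. The highest was Ier5l, the paralog of Ier5, with 0.33 and log2 ratios of 0.85, -0.42 and 0.56, and the lowest was Ppp2r2b, a regulatory subunit of PP2A, with -0.09.

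For Npas4 the array offered its partners and known targets. Of 10 bHLH-PAS relatives and partners, 0 were higher and 0 lower, against 2.37% and 2.84% of all genes. Their median was -0.06, from Npas3 at -0.29 to the dimerization partner Arnt at 0.07. Of 8 genes known from rodent neurons as targets of Npas4 or of the same activity programme, 2 were higher and 0 lower by the same count, against 2.37% and 2.84% of all genes, with a median of 0.42. They were Rgs2, a brake on G protein signalling, with a mean log2 ratio of 1.65 (standard error 0.03, adjusted p = 0.467) and Plk2, a kinase of synaptic weakening, with 0.74 (standard error 0.20, adjusted p = 0.747). Both were chosen into this list with earlier results of these arrays known. Bdnf, the neurotrophin, had 1.42 (standard error 0.83) with log2 ratios of 2.37, -0.24 and 2.12, and Csrnp1, a nuclear protein of the early response, had 0.72 with 0.93, -0.12 and 1.36. Bdnf, Csrnp1 and Max are named here with their values seen. Bdnf and Csrnp1 had their only value below 0 in replica 2, as Ier3, Maff and Myc did, and the second probe set of Bdnf had 0.30 there.

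**Figure D4:**
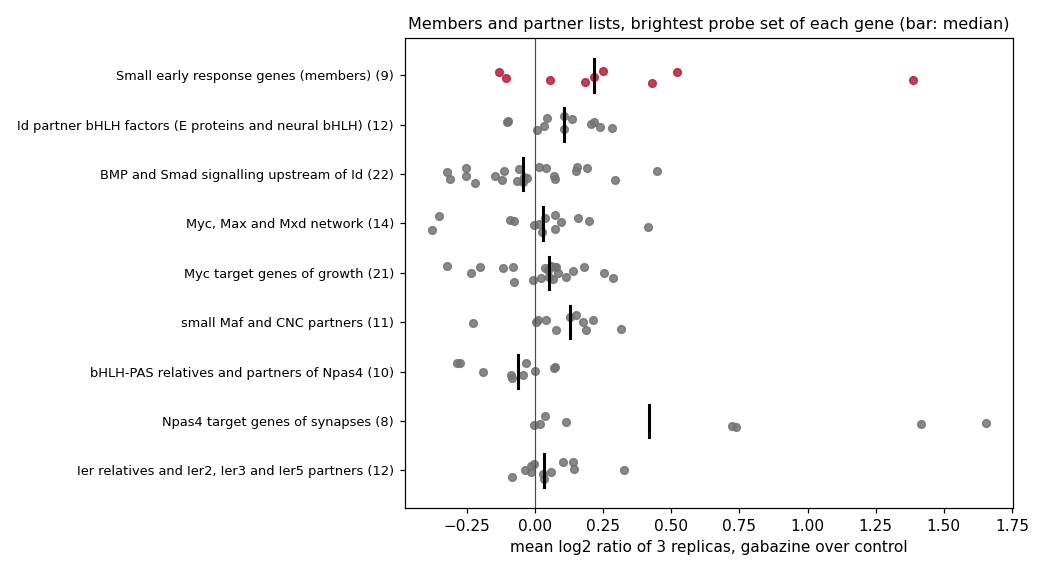
Mean log2 ratio of the 3 replicas (x axis, gabazine over control) on the brightest probe set of each gene, for the 9 measured members in red and for 8 lists of partners and pathways in grey, with the number of genes in brackets and a black bar at the median. Ier2 at 1.39 lies apart from the other members. The list of targets of Npas4 or of the same activity programme has the highest median, 0.42, but Rgs2 and Plk2 were chosen into it with earlier results of these arrays known.

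The members were set beside the 3 families of early response genes most like them, and their median was the smallest of the 4. The 6 probe sets of the Nr4a nuclear receptors had a median log2 fold change of 2.52 and 5 of them were higher in all 3 replicas. The 6 of the Egr factors had 1.28 with 5 higher in all 3, the 13 of the Fos and Jun proteins had 0.74 with 8, and the 15 of the members had 0.25 with 3. Of all probe sets 6.92% were higher in all 3. Identical values in a replica, which bar this, were held by 14754 of all 31099 probe sets. Among the families they were held by 2 of the members, 1 of Egr, 0 of Nr4a and 3 of Fos and Jun. Within the members the median was 0.43 over the 5 Ier probe sets and 0.04 over the 8 of the Id genes. The ranges overlapped: Ier2 at 1.39 lay above the Egr median, and the lowest probe sets of the Egr, Nr4a and Fos and Jun families had 0.32, 0.21 and -0.03. In replica 2 alone the medians were 2.05 for Nr4a, 0.64 for Egr, 0.07 for Fos and Jun and 0.04 for the members. These families were chosen as neighbours with their values known, and the differences between families were not tested.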

How the data were processed

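RNA of 3 gabazine-treated and 3 control samples was measured on the Affymetrix RAT2302 chip. From the scanned images the authors derived, with RMA, the log2 intensities that were deposited, a step named in the methods and in the submitters' processing notes; its version and whether the replicas were normalized together are not given in the sources used here. Deposited values carry no detection call, and the number of arrays limits the precision. Groups and replica numbers came from the sample titles, and 0 columns were left out.

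Probe sets were named from the platform annotation, and the Entrez identifiers of all 9 measured members matched RefSeq. Gabazine minus control was fitted on all 31099 probe sets with limma 3.58.1 (R 4.3.3), with the replica as a block, because the methods set each replica against its own control; arrays of a replica deviated together, with correlations of 0.794, 0.664 and 0.853. P-values were adjusted by the Benjamini-Hochberg method. Standard errors are those of the mean of 3 log2 ratios. The test was also run on simulated data with equal noise for every probe set. Such data do not show how the test behaves on these arrays, whose spread differed between replicas.

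Where 1 probe set stands for a gene, it is the one with the highest mean over the 6 arrays. All member probe sets are named, and of each list those with an unadjusted p under 0.05, or else the highest and the lowest. The members and lists were chosen with earlier results of these data known. Alternatives were no block, each replica left out, 3 other scalings, a trended and robust eBayes, a filter on the 40% dimmest probe sets, and averaging the probe sets of each gene. The design text gives both arrays of a replica the same 2 littermates, which is where the pairing comes from.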

Additional observations from a re-analysis of the deposited data

How the results depend on the processing

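Member probe sets called by limma at an adjusted p under 0.05 numbered 0 in either direction under each of the 9 alternatives that refit the array. Higher at an unadjusted p under 0.05 were 2 member probe sets with all replicas and the block, and 1 with no replicate block. With 1 replica left out they numbered 0 without replica 1, 2 without replica 2 and 1 without replica 3. The 2 without replica 2 were those of Ier2 and Id1, so that Id2 probe set 1368870_at was no longer among them. Without the block limma called 14 probe sets of the array higher and 0 lower, none of them a member. The cause was not tested, apart from the fewer arrays in the fits without a replica.

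The log2 fold changes of Ier2, Ier3, Id1 and Maff stayed above 0 under every alternative, and that of Ier2 ran from 1.25 to 1.62. On the brightest probe sets, leaving out 1 replica gave -0.091 to 0.15 for Ier5, -0.25 to 0.0047 for Id2, -0.19 to 0.49 for Id3, -0.27 to 0.055 for Id4 and -0.076 to 0.46 for Myc, so that each of these 5 changed sign. Averaging all probe sets of a gene gave Id2 0.15 instead of -0.13 and Ier5 0.31 instead of 0.05, and the cause was not tested. Leaving out 1 replica also moved Ier3, from 0.06 without replica 3 to 0.79 without replica 2, and Maff, from 0.21 to 0.87. With the 40% dimmest probe sets left out, 13 of the 15 remained, without 2 of Ier5.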
